A study of Mus musculus with 2 samples.

Results

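Pericytes sit in the wall of capillaries and vascular smooth muscle cells wrap larger vessels, and both are grouped as mural cells. The 10 genes described here are used to recognise these cells or their recruitment, and were measured in total RNA-seq libraries of the newborn mouse neural tube: Vtn, Rgs5, Higd1b, Acta2, Pdgfb, Pdgfrb, Tagln, Anpep, Abcc9 and Myh11. They were listed by symbol, with earlier results of these data known, and all 10 matched exactly 1 of 43346 gene rows. The series holds 1 group, the neural tube of B6NCrl pups at postnatal day 0. It has 1 tube from each of 2 pups of 1 litter, so n = 2, and there is no control, genotype or treatment contrast. The labels give no treatment, transgene or pooled animals, and the tissue was sequenced whole, with no sorting of vessels.

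The tissue carried the genes its label calls for, with the neuronal tubulin Tubb3 at 1005 ± 127 TPM and the oligodendrocyte lineage factor Olig1 at 160.5 ± 8.09 (SD, n = 2). Pup 2 had 40003518 expected counts on gene rows and pup 1 had 26916916. Levels are TPM, the deposited abundance scaled by length and library, and interval bounds are those deposited beside each TPM, whose level is not given in the sources used here. Differences are log2 ratios of pup 2 over pup 1 from expected counts after TMM scaling, which sets each gene against the bulk of genes. The bracketed 95% interval of a log2 ratio covers counting error only. Each pup has 1 library, so no test was possible and no p-value is given. In whole tissue, fewer cells of a type and less RNA per cell cannot be told apart.

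In developing vessels the endothelium secretes PDGF-B, the product of Pdgfb, which binds the receptor PDGFR-beta on mural progenitors and draws them to the vessel. Established pericytes are recognised by Rgs5, Abcc9, Higd1b, Anpep and Vtn, and smooth muscle cells by the contractile genes Acta2, Tagln and Myh11. None of these genes is limited to mural cells, and Vtn is also made in large amounts by the liver.

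The promoters of 3 members are shown because they mark where transcripts begin for the highest member, for a contractile member and for Anpep, whose transcripts start at different sites. They are RefSeq windows on GRCm38.p6 from 250 bases before to 50 bases after a start site, and 5 of the 10 members had one. Capitals mark matches on either strand to a pair of short motifs. One is TGGGAA, the core bound by the Notch effector RBPJ. The other is the TATA element TATAAA.
Vtn, chr11:78498870-78499169, plus strand: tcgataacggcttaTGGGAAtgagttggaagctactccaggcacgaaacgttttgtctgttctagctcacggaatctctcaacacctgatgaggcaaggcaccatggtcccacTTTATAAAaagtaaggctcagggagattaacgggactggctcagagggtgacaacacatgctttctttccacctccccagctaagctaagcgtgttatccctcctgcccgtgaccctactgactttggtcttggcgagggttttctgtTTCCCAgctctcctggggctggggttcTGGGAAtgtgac
Acta2, chr19:34255324-34255623, minus strand: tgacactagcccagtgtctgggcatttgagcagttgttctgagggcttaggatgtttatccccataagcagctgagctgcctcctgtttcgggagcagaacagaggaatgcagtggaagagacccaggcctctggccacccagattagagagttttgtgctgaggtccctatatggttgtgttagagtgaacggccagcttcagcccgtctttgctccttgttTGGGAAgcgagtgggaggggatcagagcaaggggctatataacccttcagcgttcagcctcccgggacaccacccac
Anpep, chr7:79848161-79848460, minus strand: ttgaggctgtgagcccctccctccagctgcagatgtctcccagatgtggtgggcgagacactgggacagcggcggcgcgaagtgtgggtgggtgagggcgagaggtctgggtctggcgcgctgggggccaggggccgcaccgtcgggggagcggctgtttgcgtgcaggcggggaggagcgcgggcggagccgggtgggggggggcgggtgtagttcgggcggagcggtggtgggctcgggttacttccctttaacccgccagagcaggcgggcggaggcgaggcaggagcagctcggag
TGGGAA was found in 3 of the 5 promoters, those of Vtn, Acta2 and Abcc9. TATAAA, searched only in its exact form, was found only in the Vtn promoter, where a match on one strand overlaps one on the other. Near forms of TATAAA were not searched, and the Acta2 window holds tatataa. Over 32851 promoters of the same length, 25.6% held TGGGAA and 13.6% held TATAAA. The CArG box, a site bound by SRF, was searched only in its exact form, which was in none of the 5 and in 1.63% of all. Near forms with another base inside the core, which SRF also binds, were not searched, so the Acta2 window may hold such sites. These matches describe letters in a window and not sites in use. The start sites of the Vtn and Anpep windows are the first bases of Vtn-201 and Anpep-202 in the GENCODE M21 annotation, while the Acta2 start lies 217 bases from that of Acta2-201.

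A TPM of 1 was reached in both pups by 9 of the 10 genes, and by 13698 of all 21474 protein-coding rows. That background also applies to the counts of genes at this threshold in the other lists. The levels of the 10 genes spanned a wide range. The median of the 10 was 7.35 TPM in pup 2 and 8.24 in pup 1, against a median of 17.7 for the mean TPM of the 13698 protein-coding rows that reached a TPM of 1 in both pups. Vtn stood apart from the rest. Without it, the summed level of the other 9 genes was 52.9 TPM in pup 2 and 64.7 in pup 1, and Vtn alone made up 72.6% and 63.4% of the sum of all 10 in pup 2 and pup 1.

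**Figure D1:**
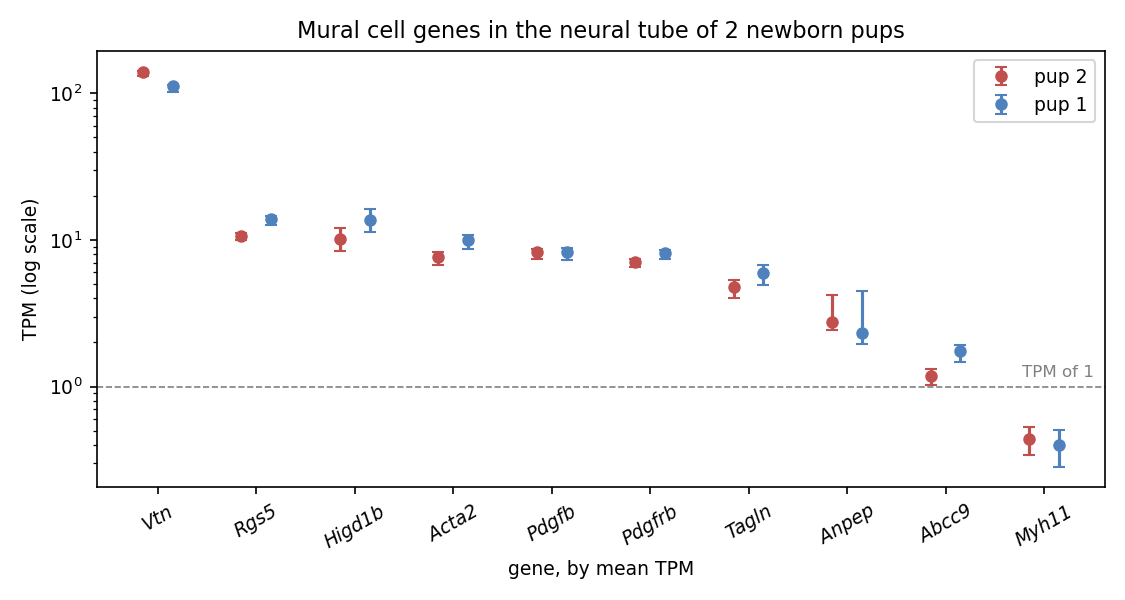
TPM of each gene on a log axis, with the deposited interval as error bars, for pup 2 (left point) and pup 1 (right point), ordered by mean TPM. Vtn lies near 100 TPM or above in both pups, 5 genes lie between about 7 and 14, and Myh11 is the only gene below a TPM of 1.

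Vtn, which encodes the adhesive glycoprotein vitronectin, was the highest member (chromosome 11, 78499091 to 78502324, plus strand, GRCm38, with 8 exons in Vtn-201). It had 139.93 TPM in pup 2, with bounds of 131.9 and 142.9, and 111.94 in pup 1, with bounds of 102.5 and 114.5. The intervals did not overlap, and pup 2 was the higher. The level exceeded that of Rgs5, the next gene, 13.1 times in pup 2 and 8.01 times in pup 1, and 94.1% of protein-coding rows were lower by mean TPM.

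Rgs5 encodes a GTPase-activating protein that shortens G protein signalling (chromosome 1, 169655501 to 169695813). It had 10.70 TPM in pup 2 and 13.97 in pup 1, from 1136 and 956 expected counts in pup 2 and pup 1. Pup 1 was the higher and the intervals lay apart. Within the R4 family of Rgs genes, Rgs4 was the highest at 87.3 TPM in pup 2 and 84.3 in pup 1, so Rgs5 stood at 0.123 of Rgs4 in pup 2 and 0.166 in pup 1. Rgs2 (64.6 ± 0.467 TPM), Rgs3 (28.2 ± 0.905), Rgs8 (7.3 ± 0.481) and Rgs16 (6.93 ± 0.191) completed the family list.

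Higd1b encodes a small mitochondrial protein of the hypoxia-inducible HIG1 family (chromosome 11, 102835849 to 102838040). It had 10.11 TPM in pup 2 and 13.78 in pup 1 from only 135 and 123 counts, and its intervals overlapped. In neither pup could its level be told from that of Rgs5 by the intervals. Its paralog Higd1a, some of whose windows recur in the pseudogene Gm9790, was 7.92 times as high in pup 2 and 5.99 times as high in pup 1, and Higd1c was at 0.45 and 0.28 TPM in pup 2 and pup 1, from 5.5 and 2 counts. Most 100-base windows of Higd1c also occur in Methig1, so its value is uncertain.

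The ligand and its receptor were at similar levels. Pdgfb (chromosome 15, 79995874 to 80014977, minus strand) had 8.24 TPM in pup 2 and 8.27 in pup 1. Pdgfrb (chromosome 18, 61045150 to 61085061) had 7.07 in pup 2, with bounds of 6.50 and 7.36, and 8.20 in pup 1, with bounds of 7.41 and 8.54. Pdgfb hardly differed between the pups, whereas the Pdgfrb intervals lay apart, with pup 1 the higher. The receptor stood at 0.858 of the ligand in pup 2, where their intervals lay apart, and at 0.992 in pup 1, where they overlapped.

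All 6 genes of the PDGF family passed a TPM of 1. Pdgfa, a ligand made widely in neural tissue, led at 54.7 ± 4.21 TPM, 7.0 times Pdgfb in pup 2 and 6.26 times in pup 1. Pdgfra, the receptor of oligodendrocyte precursors and fibroblasts, had 16.2 ± 0.283, so that Pdgfrb stood at 0.432 of it in pup 2 and 0.513 in pup 1. Pdgfd, a ligand of PDGFR-beta, had 7.53 and 6.14 in pup 2 and pup 1, and Pdgfc was lowest at 3.57 ± 0.438.

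Abcc9 encodes the sulfonylurea receptor SUR2, which joins the potassium channel subunit Kir6.1, encoded by Kcnj8, in the ATP-sensitive channel of mural cells (Abcc9 on chromosome 6, 142587862 to 142702315). It had 1.18 TPM in pup 2, with bounds of 1.02 and 1.32, and 1.74 in pup 1, with bounds of 1.48 and 1.93. The intervals lay apart, and pup 1 was the higher. Kcnj8 showed 6.68 TPM in pup 2 and 9.27 in pup 1, and the ratio of Kcnj8 to Abcc9 was alike in both, at 5.66 in pup 2 and 5.33 in pup 1. The paralogs Abcc8 and Kcnj11, subunits of the channel in neurons and endocrine cells, were at 4.19 ± 0.58 and 1.79 ± 0.297 TPM.

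Anpep, the membrane aminopeptidase CD13, is carried by pericytes and also by myeloid cells and fibroblasts (chromosome 7, 79821803 to 79861059). It had 2.74 TPM in pup 2 and 2.32 in pup 1, with overlapping intervals that reached up to 4.19 and 4.50 in pup 2 and pup 1. In both pups the deposited posterior mean was higher than the TPM, at 3.16 in pup 2 and 2.97 in pup 1.

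The contractile genes fell into a steep order, with Acta2 above Tagln and both far above Myh11. Acta2, smooth muscle alpha-actin (chromosome 19, 34241090 to 34255590), had 7.63 TPM in pup 2, with bounds of 6.72 and 8.30, and 10.03 in pup 1, with bounds of 8.61 and 10.9. Tagln, the actin-binding transgelin SM22 (chromosome 9, 45929619 to 45936058), had 4.76 in pup 2 and 5.96 in pup 1. Acta2 was the only one of the 3 whose intervals lay apart between the pups. Myh11, the smooth muscle myosin heavy chain (chromosome 16, 14194535 to 14291372), had 0.44 TPM in pup 2 and 0.40 in pup 1, from 76 and 45 counts. Acta2 exceeded Tagln 1.60 times in pup 2 and 1.68 times in pup 1, and Myh11 17.3 times in pup 2 and 25.1 times in pup 1.

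In each family the smooth muscle member was a minor part of the family's level. Acta2 made up 0.0993% of the summed TPM of 6 actin genes in pup 2 and 0.118% in pup 1, most of it Actb and Actg1. Tagln made up 1.19% and 1.37% of the 3 transgelins in pup 2 and pup 1, where Tagln3, the neuronal form, led at 311 ± 28.6 TPM and Tagln2 followed at 101 ± 4.88. Myh11 made up 0.659% and 0.49% of 4 myosin heavy chains in pup 2 and pup 1, with the non-muscle gene Myh10 at 58.6 ± 9.21, Myh14 at 8.57 ± 1.14 and Myh9 at 6.56 ± 0.141. Acta1, skeletal muscle actin, exceeded Acta2 4.48 times in pup 2 and 3.42 times in pup 1, cardiac Actc1 was at 2.26 ± 0.141 TPM, and Actg2, the other smooth muscle actin, at 1.64 ± 0.636 from 39 and 44 counts in pup 2 and pup 1. Between 24.3% and 73.6% of the 100-base windows of each Actg1 transcript recur in pseudogenes, so its value is uncertain.

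**Figure D2:**
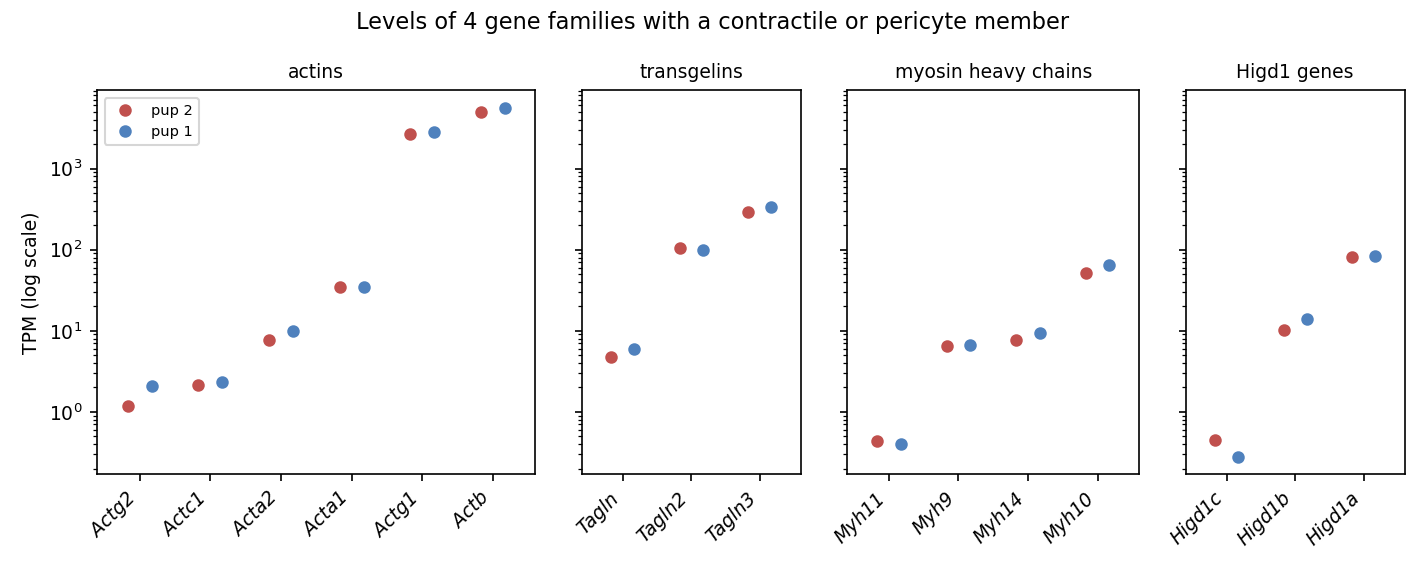
TPM on a log axis of the actin, transgelin, myosin heavy chain and Higd1 families, with pup 2 as the left and pup 1 as the right point of each gene. The smooth muscle members Tagln and Myh11 are the lowest of their families, and Acta2 lies below Acta1, Actg1 and Actb in both pups.

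The actin coding sequences show how reads can be told apart. The first 60 coding bases of Acta2 and of the skeletal and cardiac genes, from GENCODE M21 transcripts, are given with bases that differ from Acta2 in capitals.
Acta2: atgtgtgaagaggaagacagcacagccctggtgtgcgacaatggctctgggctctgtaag
Acta1: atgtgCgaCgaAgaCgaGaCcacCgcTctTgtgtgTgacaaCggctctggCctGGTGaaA
Actc1: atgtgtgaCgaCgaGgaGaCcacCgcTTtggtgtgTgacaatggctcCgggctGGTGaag
Over the 1131 coding bases, Acta1 was 85.4% identical to Acta2 and Actc1 82.6%, and Actg2 was 84.4% identical over 1128 aligned bases. The longest identical run was 29 bases with Acta1, 23 with Actc1 and 29 with Actg2. For all 10 genes, no window of 100 bases, among 68703 in their transcripts, occurred in the same orientation in a transcript of another gene, and 9 of 10 had expected counts within 0.005 of a whole number in both pups. On the opposite strand, 33.2% of the Tagln-201 windows lie in the antisense gene Gm48529 or in Pcsk7, and about 1% or less of each full-length Abcc9 transcript in 5330439B14Rik. The strand setting is not given in the sources used here, so reads of Tagln and its antisense gene cannot be told apart.

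Ordered by mean TPM the genes ran Vtn, Rgs5, Higd1b, Acta2, Pdgfb, Pdgfrb, Tagln, Anpep, Abcc9 and Myh11. Neighbours in this order had separate intervals in both pups for 5 of the 9 pairs. The intervals of Rgs5 and Higd1b and those of Acta2 and Pdgfb overlapped in both pups, and Acta2 and Pdgfb also changed places between them. Those of Pdgfb and Pdgfrb overlapped only in pup 1, and those of Tagln and Anpep only in pup 2.

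No member differed 2-fold between the pups. With TMM scaling none differed 1.5-fold, whereas with spike-in totals Abcc9, Higd1b, Acta2 and Rgs5 did, at log2 ratios of -0.78, -0.70, -0.62 and -0.60. Across the 13544 rows with a mean count of 100 or more, 0.473% were past 2-fold, 0.413% higher in pup 2 and 0.0591% lower. At that count 9 of the 10 genes could be compared, all but Myh11, and 6 of the 9 had a log2 ratio below 0, against 49.7% of all rows. Their median log2 ratio was -0.25, against 0.0011 for all rows.

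The lowest ratio was that of Abcc9 at -0.49 (-0.77 to -0.22), or 1.41-fold lower in pup 2, followed by Higd1b at -0.41 (-0.78 to -0.06), Acta2 at -0.32 (-0.56 to -0.095) and Rgs5 at -0.31 (-0.43 to -0.18). These 4 lay below the 5th percentile of all rows, which was -0.29. Tagln had -0.25 (-0.57 to 0.060) and Pdgfrb -0.15 (-0.28 to -0.0071). The Tagln interval took in 0, and that of Pdgfrb ended just short of it.

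On the other side, Vtn had 0.34 (0.27 to 0.40), or 1.26-fold higher in pup 2, at the 95th percentile of all rows, which was 0.34. Anpep was at 0.29 (-0.014 to 0.60) and Pdgfb at 0.063 (-0.12 to 0.25), and both have a log2 ratio below 0 when spike-in totals set the scale, as Pdgfb has in TPM too. After TMM scaling Vtn and Rgs5 differed between the pups in opposite directions, each by more than counting error, but with spike-in totals the log2 ratio of Vtn was 0.042, which is within its counting error. Myh11, below the count limit, had 0.20 (-0.35 to 0.77).

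The deposited TPM intervals of the pups lay apart for 5 of the 9 genes, against 23.6% of all rows. They were lower in pup 2 for Rgs5, Acta2, Pdgfrb and Abcc9, against 15.9% of all rows, and higher for Vtn, against 7.72%. Scaling by spike-in totals would shift every log2 ratio by -0.29.

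**Figure D3:**
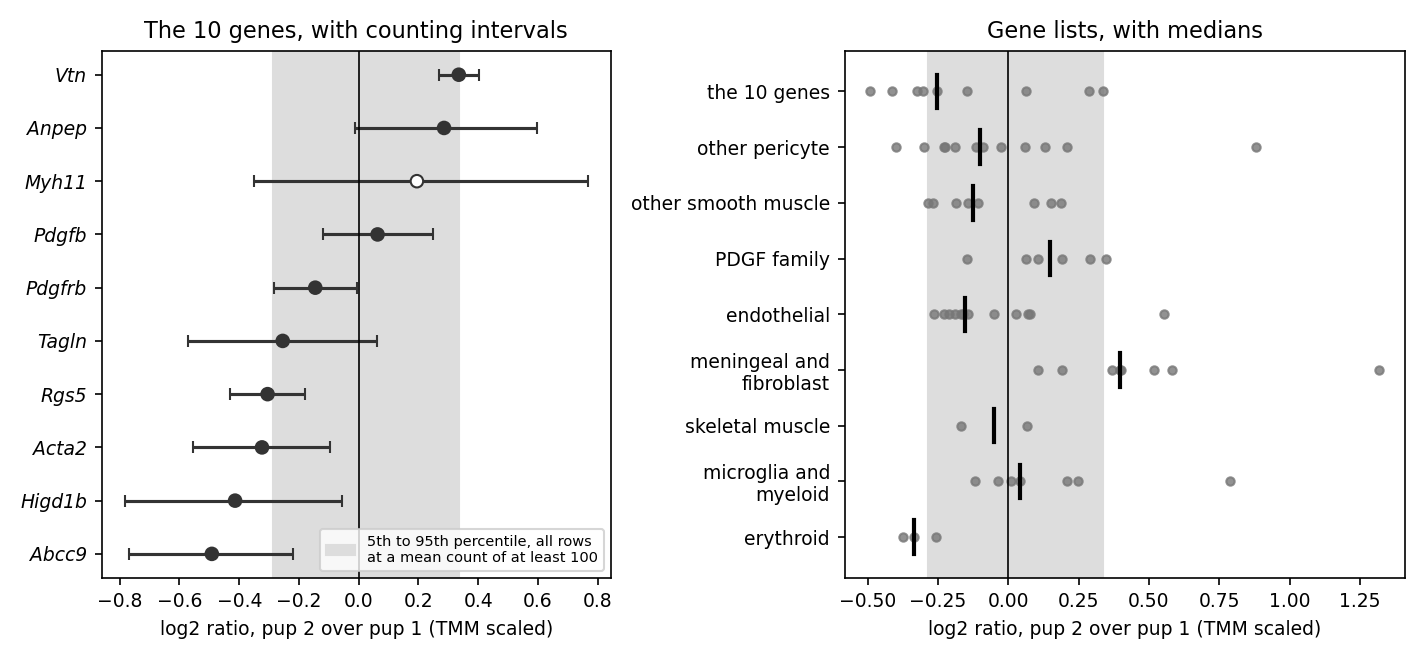
Left, log2 ratio of pup 2 over pup 1 for each gene with its 95% counting interval (open symbol, mean count below 100) over the 5th to 95th percentile of all compared rows in grey. Right, the same ratio for the compared genes of each list (points) with the list's median (bar), where the 10 genes have a median of -0.25 and the meningeal and fibroblast genes one of 0.40.

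Among 13 further pericyte genes, 12 reached a TPM of 1 in both pups, led by Cd248 (endosialin) at 15.4 ± 1.37, the adhesion molecule Mcam at 13.2 ± 0.771 and Ndufa4l2 at 11.2 ± 0.339, with the T-box gene Tbx18 lowest at 0.915 ± 0.134. In 12 at a mean count of at least 100, 8 had a log2 ratio below 0, against 49.7% of all rows, and the median was -0.10. Intervals lay apart and lower in pup 2 for 4, Kcnj8, Notch3, Cspg4 and Zic1, against 15.9% of all rows. They were apart and higher for 1, Foxc1, at 4.36 TPM in pup 2 and 2.47 in pup 1, against 7.72%. Several of these are shared with other cells, Cspg4 with oligodendrocyte precursors and Foxc1 and Zic1 with the meninges.

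Of 12 further smooth muscle genes 9 reached a TPM of 1 in both pups. Sncg, gamma-synuclein, was highest at 241 ± 2.85 TPM and is also a neuronal gene, followed by the caldesmon gene Cald1 at 46.0 ± 5.88 and the myosin light chain Myl9 at 39.9 ± 3.56. A pair of further contractile genes were as low as Myh11. Cnn1, calponin, had 0.32 and 0.59 TPM in pup 2 and pup 1, and Lmod1, leiomodin, was lowest with 0.15 and 0.14 from 15 and 9 counts. The median log2 ratio of the 8 compared genes was -0.13. Smtn and Mylk had intervals apart and lower in pup 2, against 15.9% of all rows. Cald1 had intervals apart and higher, against 7.72%.

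Markers of some neighbouring cell types also differed between the pups, namely the meningeal and fibroblast, endothelial and erythroid lists. All 8 compared meningeal and fibroblast genes had a log2 ratio above 0 after TMM scaling, with a median of 0.40. Of all rows, 49.7% were below 0. The ratios of Col3a1 (0.19) and Pdgfra (0.10) would lie below 0 on the spike-in scale. Of the 8 genes, 6 had intervals apart and higher in pup 2, against 7.72% of all rows. Their summed level was 3328 TPM in pup 2 and 1845 in pup 1, led by Ptgds, at 2190 TPM in pup 2 and 922 in pup 1, a log2 ratio of 1.32. Igf2 and Col1a1 followed at 333 ± 72.5 and 209 ± 33.4 TPM, and Twist1 was lowest at 1.91 ± 0.707. Endothelial markers were lower in pup 2 on the median, with a median log2 ratio of -0.15 over 12 compared genes. Of these 12, 8 were below 0, against 49.7% of all rows. Intervals lay apart and lower in pup 2 for 6, against 15.9%, and higher for 1, Ly6c1, against 7.72%. The summed endothelial level was 313 TPM in pup 2 and 347 in pup 1.

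Within that endothelial list Cldn5, a tight junction gene, led at 117 ± 18.9 TPM, ahead of the glucose transporter Slc2a1 at 45.1 ± 5.06 and Ly6c1 at 42.2 ± 10.5, and Slco1a4 was lowest at 1.25 ± 0.742. Ly6c1 was higher in pup 2, at 49.6 TPM against 34.8 in pup 1. Slco1a4 was also higher in pup 2, at 1.78 against 0.73, but below the count limit and with overlapping intervals. Cdh5, the endothelial cadherin, had 8.37 TPM in each pup, 1.18 times Pdgfrb in pup 2 and 1.02 times in pup 1. Erythroid markers were lower in pup 2 in 3 of 3 compared genes, against 49.7% of all rows. Their median log2 ratio was -0.33, with sums of 1290 TPM in pup 2 and 1667 in pup 1. They were led by Hbb-bs at 848 ± 137 and Hba-a1 at 621 ± 129 TPM, with Alas2 at 8.73 ± 1.1 and Slc4a1 lowest at 0.365 ± 0.148, and both globin values are uncertain since each gene has a near-identical copy.

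Skeletal muscle markers summed to 53.4 TPM in pup 2 and 55.6 in pup 1, with Acta1 at 34.2 ± 0.0707, Mylpf at 7.82 ± 2.09, Tnnt3 at 4.99 ± 1.05 and Myog lowest, with 1 and 0 counts. Microglia and myeloid markers summed to 261 TPM in pup 2 and 230 in pup 1, with a median log2 ratio of 0.041 that lies below 0 on the spike-in scale. C1qb, C1qa and Lyz2 led at 89.8 ± 7.87, 60.7 ± 0.827 and 44.9 ± 15.5 TPM, and Itgam was lowest at 1.39 ± 0.346. No listed gene was at 0 counts in both pups. The part of these cell types in the ratios of the mural genes was not tested.

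Transcript use could be described only for members with several deposited transcripts. A single transcript was deposited for 4 members, Acta2, Pdgfb, Tagln and Myh11, and several for 6. For those 4 the share is 100% whatever the reads. GENCODE M21 holds further transcripts of each of the 4, which were not measured. Of the 6, Pdgfrb and Abcc9 had all their counts on 1 transcript in both pups. By deposited percent, 5 had the same leading transcript in both pups. Abcc9-203 took all 227 and 218 counts in pup 2 and pup 1. Its coding part ends at 142590369 in the M21 annotation and that of the 3 other Abcc9 transcripts at 142594008, on the minus strand, so its last coding exon differs from theirs. By posterior means Abcc9-203 held 71.5% in pup 2 and 72.0% in pup 1. In both pups its TPM, 1.18 in pup 2 and 1.74 in pup 1, lies above its deposited interval. That interval was 0.48 to 1.17 in pup 2 and 0.74 to 1.70 in pup 1, so its share is uncertain.

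Anpep was the gene whose leading transcript by deposited percent differed between the pups. Anpep-201, which starts at 79842352, held 60.2% of the gene's TPM in pup 2 and 44.9% in pup 1. Anpep-202, which starts upstream at 79848210 with the promoter shown above, held 39.8% in pup 2 and 55.1% in pup 1. Both encode the same 2898 coding bases, so they differ outside the coding part. Anpep-201 took 57.6% of 253 counts in pup 2 (95% exact binomial interval 51.4% to 63.9%) and 42.3% of 141 counts in pup 1 (34.3% to 51.2%). These intervals do not overlap but cover counting error only, not the division of reads between transcripts, and the deposited TPM intervals of Anpep-201, 0.91 to 2.19 in pup 2 and 0.15 to 1.64 in pup 1, do overlap. Within each pup the intervals of Anpep-201 and Anpep-202 also overlap, so which of them leads is uncertain. Those of Anpep-202 were 0.59 to 1.72 in pup 2 and 0.67 to 2.04 in pup 1. Posterior means gave the same leading transcript in each pup. They also placed 14.7% in pup 2 and 23.9% in pup 1 on Anpep-203, which had 0 counts.

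Higd1b was split between Higd1b-203, with 65.0% in pup 2 and 57.9% in pup 1, and Higd1b-201, with 35.0% in pup 2 and 42.1% in pup 1. The 2 share their coding bases and differ in where they start, at 102835849 for Higd1b-203 and 102836296 for Higd1b-201. By expected counts, not divided by length, Higd1b-201 narrowly led in pup 1, with 63.7 of 123 counts. The TPM intervals of Higd1b-203 and Higd1b-201 overlapped in each pup, so which of them leads is uncertain. Vtn-201, the coding transcript, led with 76.0% in pup 2 and 80.9% in pup 1. Vtn-204, annotated as a retained intron, held 22.8% in pup 2 and 17.5% in pup 1. At 106.3 TPM in pup 2 and 90.6 in pup 1, Vtn-201 had intervals that lay apart, whereas those of Vtn-204, at 31.9 and 19.6 TPM in pup 2 and pup 1, overlapped. Rgs5-201 held 100% in pup 2 and 99.1% in pup 1.

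**Figure D4:**
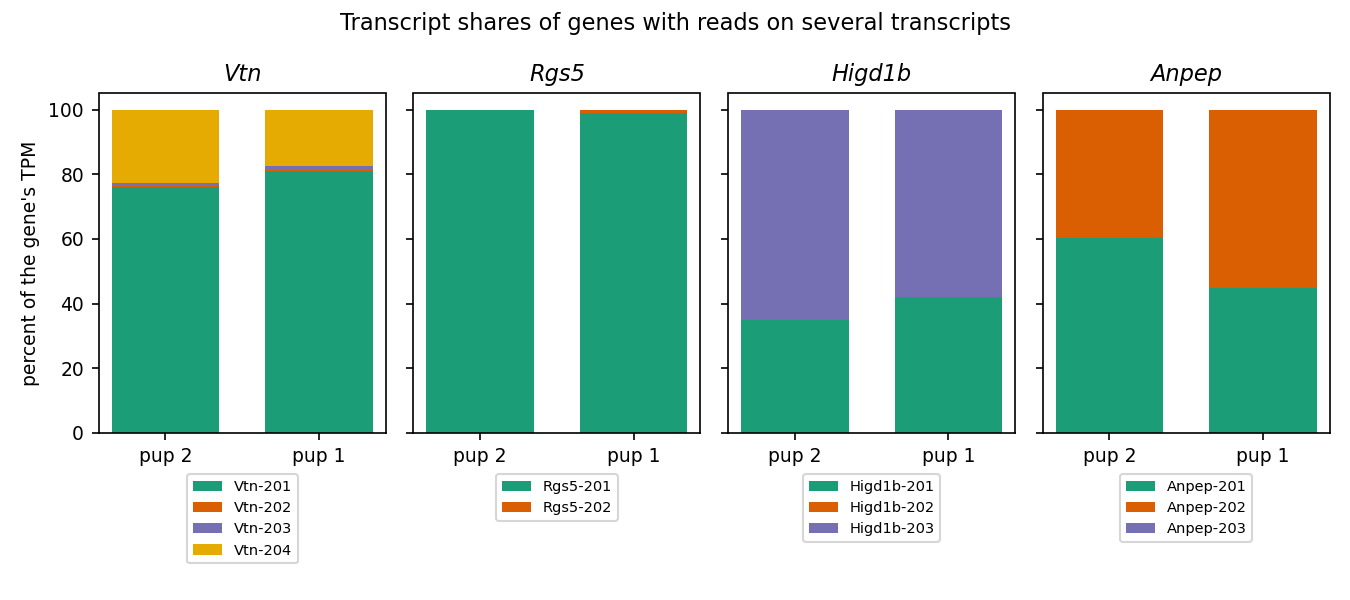
Share of each gene's TPM held by its transcripts, in percent, for the 4 genes with counts on more than 1 transcript, with pup 2 as the left bar and pup 1 as the right. By deposited percent the leading transcript of Anpep differs between the pups, while Vtn-201, Rgs5-201 and Higd1b-203 lead in both. For Anpep and Higd1b the TPM intervals of the leading and the next transcript overlap in each pup.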

How the data were processed

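Total RNA of 1 neural tube from each of 2 pups was sequenced. Per the labels, 10 ng of RNA above 200 bases entered each library. Per the deposited notes, reads were assigned on mm10 with GENCODE M4, and the column names are those that RSEM writes. Which aligner and which settings, strand included, is not given in the sources used here. The deposited expected counts are estimated reads per feature and need not be whole. The deposited TPM values sum to a fixed total over all rows and are divided by effective length. The deposited percent column gives how much of a gene's TPM each transcript holds.

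Gene and transcript annotation was GENCODE M21, whose build, GRCm38, is the one named mm10. Of 22 member transcripts, 16 have the same length in both releases. Of 43346 gene rows, 42462 matched a symbol. tRNA, spike-in and phiX rows were left out. tRNA rows held 6 and 17.7 counts and 96 spike-in rows 603 and 335, in pup 2 and pup 1. Expected counts were rounded, and log2 ratios used edgeR 4.0.16 (TMM over rows at a mean count of at least 10, prior count of 2) in R 4.3.3, with DESeq2 1.42.0 size factors as an alternative. Ratio intervals are exact binomial intervals of the split of counts between the pups. They cover counting error only, and n = 2 limits every level. The scaling and log2 ratio steps were tested on simulated counts. Python 3.11.15, scipy 1.17.1 and matplotlib 3.10.9 were used elsewhere.

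The members and lists were chosen with earlier results of these data known. All members are named with their values. Of the other lists, the 3 highest, the lowest and any compared gene past 2-fold are named, and all members of the paralog lists. Further genes in the text, including Tubb3 and Olig1, were named after their values were seen. Genes were not ranked by likeness of pattern, since 2 libraries give 1 ratio a gene. Mkl1 and Mkl2 are Mrtfa and Mrtfb in the annotation. Alternatives covered scaling, count limits, prior counts, thresholds, posterior means and each pup alone.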

Additional observations from a re-analysis of the deposited data

How the results depend on the processing

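The number of members at a TPM of 1, 9 in both pups, was also 9 at a threshold of 0.5, with posterior means, with TPM rescaled over nuclear rows and in each pup alone, and was 8 at a threshold of 2. The median level was 7.35 without pup 1 and 8.24 without pup 2, 7.75 with posterior means and 8.55 with TPM rescaled over nuclear rows. No member passed 2-fold under any scaling, count limit or prior count tried. None passed 1.5-fold with TMM scaling, but under spike-in totals Abcc9 (log2 ratio -0.78), Higd1b (-0.70), Acta2 (-0.62) and Rgs5 (-0.60) did. The median log2 ratio was -0.25 and moved most under spike-in totals, to -0.54. That scale rests on 603 and 335 spike-in counts in pup 2 and pup 1. Under the other settings the median lay between -0.20 and -0.32. Spike-in totals turned the sign of 3 of 10 member ratios, Pdgfb, Anpep and Myh11, and TPM ratios that of Pdgfb. DESeq2 size factors, library totals and both other prior counts turned none. The top transcript was shared by 5 of 6 genes by percent, by 4 by expected count, where Higd1b joined Anpep, and by 5 with posterior means, an alternative chosen after seeing the data. Ratios could not be computed without a pup, since each rests on both. No paired analysis was possible because the series holds 1 group. Depth limits Myh11, at 76 and 45 counts in pup 2 and pup 1, most of all the members.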

Other observations

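Of 6 regulators of smooth muscle genes, Mrtfa and Mrtfb, coactivators of SRF that carry actin signals to the nucleus, were highest at 17.9 ± 2.5 and 13.7 ± 2.1 TPM (SD, n = 2), followed by Tead1 at 9.59 ± 0.0354. Srf itself had 2.49 TPM in pup 2 and 2.67 in pup 1. Myocd, the myocardin coactivator specific to cardiac and smooth muscle, was lowest, with 0.20 and 0.07 TPM from 21 and 5 counts in pup 2 and pup 1. In both pups the deposited interval of Myocd starts above its TPM, so its values are uncertain.

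Of 13 genes that carry signals between endothelium and mural cells, 12 reached a TPM of 1 in both pups. N-cadherin (Cdh2) led at 47.5 ± 5.43, ahead of the sphingosine receptor S1pr1 at 44.7 ± 0.276 and endoglin (Eng) at 19.5 ± 1.55, and Tgfb1 was lowest at 0.875 ± 0.00707. The tissue was sequenced whole, so these levels need not come from vessels. Dll4, an endothelial Notch ligand, had 1.44 TPM in pup 2 and 2.51 in pup 1, and its intervals lay apart. Angpt1, the mural ligand of the endothelial receptor Tek, had 4.52 TPM in pup 2 and 3.40 in pup 1 with intervals apart, a direction opposite to that of Pdgfrb and Notch3. Tek had 4.89 and 6.05 in pup 2 and pup 1, with overlapping intervals.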
